A study of Homo sapiens with 42 samples.

Results

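miR-320a-3p, miR-320b, miR-320c, miR-320d, miR-484 and miR-877-5p were taken by name as 6 of the 2657 mature miRNA entries of the series' count table. Most miRNA hairpins are freed from a longer primary transcript in the nucleus by the Microprocessor, the RNase DROSHA with its partner DGCR8. They are then exported, processed by Dicer and loaded into an AGO protein. miR-320a, miR-484 and miR-877 are known for routes that skip the Microprocessor. The miR-320a and miR-484 hairpins begin at the transcription start and carry a 5′ cap, and miR-877 is a mirtron, a hairpin released from its host gene by splicing. miR-320b, miR-320c and miR-320d are paralogs of miR-320a with nearly the same mature sequence, and whether they skip the Microprocessor was not tested here.

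Small RNA was sequenced from cytoplasmic (C) and nuclear (N) fractions of 3 wild-type cell lines. HEK293 derives from human embryonic kidney, A375 from a human melanoma and SHSY5Y from a human neuroblastoma. Cells received no treatment and were harvested when subconfluent or confluent, which gave 12 fraction groups. A further pair of groups holds AGO1-4 immunoprecipitates (IP) of subconfluent and of confluent HEK293, made with T6B, a Flag-tagged peptide that binds all AGO proteins. Each of the 14 groups has 3 libraries, 42 in all. IP libraries are labelled as biological replicates, while fraction libraries carry only a number, so that p-values for fractions measure the spread between these libraries, which may be technical.

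The sequences show which members differ in few bases and which are unrelated. Of the 6 members, 5 matched the RefSeq miRNA table (GRCh38.p14), and they are printed 5′ to 3′ with the seed, bases 2 to 8, in capitals, together with the opposite arm of miR-877.
miR-320b: aAAAGCUGgguugagagggcaa
miR-320c: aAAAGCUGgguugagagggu
miR-320d: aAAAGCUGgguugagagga
miR-484: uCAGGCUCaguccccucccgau
miR-877-5p: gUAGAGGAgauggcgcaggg
miR-877-3p: uCCUCUUCucccuccucccag
The 3 miR-320 sequences share their seed, AAAGCUG, which only 1 other of the 2370 mature names in the RefSeq table has, miR-4429. Counted from 1 at the 5′ end and with the base of the first-named miRNA first, miR-320b and miR-320c share 19 bases and then differ by C20U. miR-320b and miR-320d differ by G19A, as do miR-320c and miR-320d. How reads that fit several of these entries were counted is not stated in the sources used here, so the split of counts within the family is uncertain. The seed of miR-484, CAGGCUC, also stands in miR-3155a and miR-3155b, and no other mature name has the seed of miR-877-5p.

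The genes of these miRNAs lie in different settings of the genome. miR-320b comes from chr1:116671787-116671808 on the plus strand (MIR320B1), which overlaps no other annotated gene, and from chr1:224257049-224257070 on the minus strand (MIR320B2), in a non-exonic stretch of NVL read in the same direction. miR-320c comes from chr18:21683559-21683578 and chr18:24321716-24321735 on the plus strand, antisense to ABHD3 and OSBPL1A and outside their exons. miR-320d lies at chr13:40727828-40727846 and chrX:140926172-140926190 on the minus strand with no overlapping host. The miR-484 hairpin, chr16:15643294-15643372 on the plus strand, overlaps an exon of NDE1 and begins 27 bases from the nearest annotated NDE1 transcript start. The miR-877 hairpin, chr6:30584332-30584417 on the plus strand, is 86 bases long and fills exactly 1 intron of ABCF1, beginning with gu and ending with ag, the bases at the ends of most introns. miR-877-5p and miR-877-3p are its outer ends, at chr6:30584332-30584351 and chr6:30584397-30584417.

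Replicate 3 of the confluent nuclei was nearly empty in HEK293 (39 counts) and in SHSY5Y (31 counts) and was not used, which leaves 2 libraries in either group. The other 34 fraction libraries held 9817 to 53775 counts (median 23407) and the 6 IP libraries 910753 to 1124959, so low members are far less precise in the fractions. Groups follow the deposited column names. A table of group means in the study's supplement carries the means of subconfluent cytoplasm under confluent nucleus and the reverse, in every line, and localization results are therefore given under both namings. Of 5 miRNAs listed for neuroblastoma, all 5 had their highest mean in SHSY5Y, from miR-124-3p (860 CPM against 34.6 in A375 and 79.9 in HEK293) to miR-7-5p, which was close in all lines (5010, 4490 and 4560 CPM). Of 7 listed for melanoma, 3 were highest in A375 (miR-146a-5p, miR-221-3p and miR-222-3p), 3 in HEK293 and 1 in SHSY5Y, and the melanocytic miR-211-5p was near 0 in A375 (8.91 CPM). Of 6 entries listed as nuclear and snoRNA-overlapping, an overlap not checked here, 3 had a higher mean in nuclei than in cytoplasm in HEK293, 1 in A375 and 5 in SHSY5Y. Within a line the 3′ adapters differ between groups, and each line was sequenced as 1 pool, so that pool and line cannot be told apart.

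miR-320a-3p was by far the most abundant of the 6 in the fractions, with 5796 counts in 34 libraries, ahead of miR-484 with 2061. miR-320b had 360 counts, miR-877-5p 153, miR-320c 93 and miR-320d 12. miR-320a-3p and miR-484 had counts in every fraction library (at least 59 and 13 each), whereas miR-320d was seen in 9 of 34. In HEK293 nuclei miR-320a-3p ranked 12th among all entries in subconfluent and 13th in confluent cells by mean share of counts. In the IP, miR-484 (23740 counts) nearly equalled miR-320a-3p (24725), and miR-320b had 831, miR-320c 182, miR-877-5p 127 and miR-320d 6 counts. Together the 6 took 2.29% ± 0.0734 of counts in subconfluent HEK293 nuclei (SD, n = 3) and 1.25% ± 0.0498 in subconfluent HEK293 cytoplasm (n = 3), against 0.464% ± 0.0637 in confluent SHSY5Y cytoplasm (n = 3), the lowest of the 14 groups. Filters of 10 counts in 3 libraries kept miR-320a-3p and miR-484 in every fit, miR-320b in all but SHSY5Y, miR-877-5p in all but A375 and SHSY5Y alone, miR-320c only in fits with IP libraries and miR-320d in none.

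**Figure D1:**
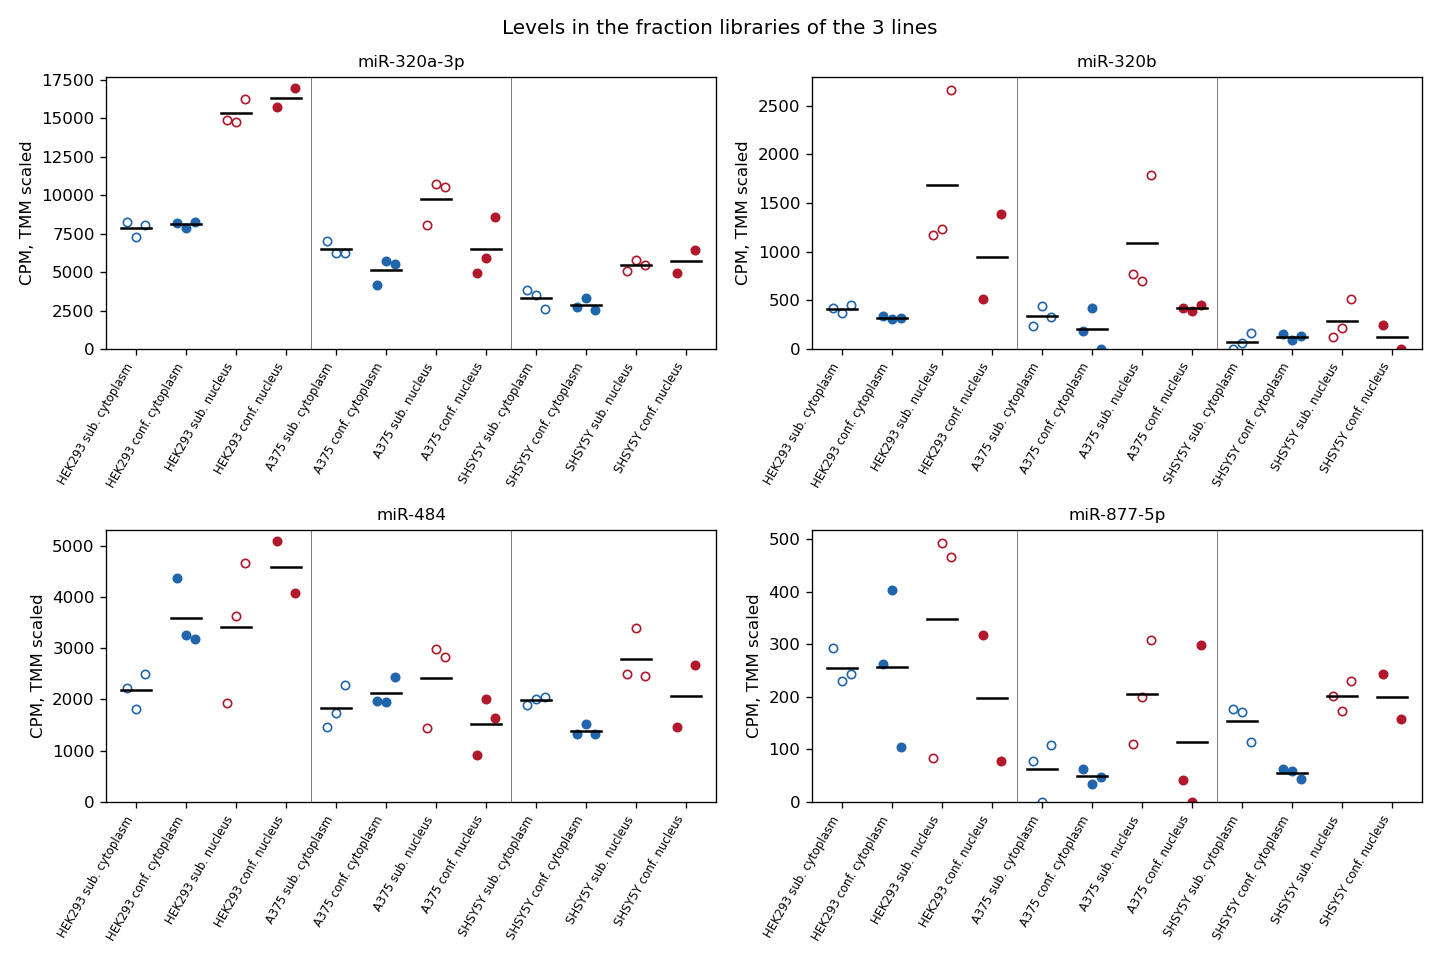
CPM (counts per 1e+06 counts) after TMM scaling of 4 members in the fraction libraries of HEK293, A375 and SHSY5Y, 1 point per library, scaled across all lines together, so that values differ from those of the fits within a line. Blue points are cytoplasmic and red points nuclear, open points subconfluent and filled points confluent, and bars are group means. miR-320a-3p lies highest in HEK293 nuclei, with means of 15320 and 16340 CPM, and lowest in SHSY5Y cytoplasm, with 2842 and 3313 CPM.

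In HEK293, miR-320a-3p and its paralog miR-320b were higher in nuclei than in cytoplasm under the deposited names, and miR-484 less so. With counts scaled by TMM (a factor per library that makes most entries alike, giving CPM, counts per 1e+06 scaled counts), miR-320a-3p had 8001, 8629 and 9338 CPM in subconfluent cytoplasm and 17340, 18050 and 18770 in subconfluent nuclei. Confluent cytoplasm had 7980, 8032 and 9172 CPM and the 2 confluent nuclear libraries 16320 and 22300. The lowest nuclear library thus lay above every cytoplasmic one. The log2 fold change was 1.13 (SE 0.16, adjusted p = 1e-05 by edgeR), and it was 1.06 in subconfluent (SE 0.21, adjusted p = 0.00036) and 1.20 in confluent cells (SE 0.23, adjusted p = 0.00072), contrasts in which 54.2% and 22.3% of all entries were called. The subconfluent value was 0.51 (adjusted p = 0.067) among entries detected in the AGO IP. As a share of all counts, without TMM, miR-320a-3p made up 1.66% of nuclear and 0.907% of cytoplasmic counts, a ratio of 1.82 (95% interval 1.7 to 1.96, for counting error only). The adapters carry random bases, but the sources used here do not state that copies of a read were merged by them. In bulk samples, fewer cells that hold a miRNA and less of it per cell cannot be told apart.

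Of the 4 members tested, miR-320b had the largest fitted difference between the HEK293 fractions. Subconfluent cytoplasm had 406, 480 and 482 CPM and confluent cytoplasm 316, 328 and 348. Subconfluent nuclei had 1476, 1504 and 2833 CPM and confluent nuclei 529 and 1824, so that all 5 nuclear libraries lay above the 6 cytoplasmic ones, 1 of them narrowly. The log2 fold change of miR-320b was 1.93 (SE 0.32, adjusted p = 6e-05 by edgeR), with 2.12 (SE 0.40, adjusted p = 0.00022) in subconfluent and 1.74 (SE 0.50, adjusted p = 0.016) in confluent cells. The confluent value rested on single libraries, being 0.68 (adjusted p = 0.54) without confluent nucleus replicate 2 and 1.64 (adjusted p = 0.057) without confluent cytoplasm replicate 2. It was 1.27 (adjusted p = 0.062) when scaled by abundant entries, 1.48 (adjusted p = 0.13) without the filter on low entries and 1.29 (adjusted p = 0.14) among entries detected in the IP. miR-320c, too low for the test, took 0.0403% of nuclear and 0.0124% of cytoplasmic counts, a ratio of 3.25 (1.86 to 5.73), and its libraries overlapped. miR-320d, with 4 nuclear and 2 cytoplasmic counts, gave a ratio of 5.64 (0.808 to 62.3), which is not resolved at this depth.

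miR-484 had 2007, 2510 and 2669 CPM in subconfluent and 3325, 3522 and 4259 in confluent HEK293 cytoplasm. Its nuclear libraries had 2425, 4437 and 4970 CPM when subconfluent and 5285 and 5371 when confluent. One subconfluent nuclear library lay within the cytoplasmic range, so the fractions overlapped. The log2 fold change of miR-484 was 0.63 (SE 0.21, adjusted p = 0.014 by edgeR), but 0.40 (adjusted p = 0.11) with library totals in place of TMM and 0.45 (adjusted p = 0.33) without the filter. miR-877-5p ranged from 116 to 413 CPM in cytoplasm and from 101 to 602 in nuclei, with a log2 fold change of 0.20 (SE 0.47, adjusted p = 0.73). So 3 of the 4 members tested were called higher in HEK293 nuclei, where 18.8% of the 345 entries tested were called higher and 53.9% in either direction. The median log2 fold change was 0.88 over the 4 members, −0.28 over all entries tested and 0.42 over the 194 of them that were detected in the AGO IP.

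Scaling and naming changed these values. Entries not detected in the AGO IP took 36.6% ± 4.33 of counts in subconfluent and 20.3% ± 2.58 in confluent HEK293 cytoplasm (SD, n = 3 each), against 10.9% ± 1.9 in subconfluent nuclei (n = 3), and 5.68% and 8.63% in the 2 confluent nuclear libraries. When only entries detected in the IP were fitted, the miR-320a-3p difference between HEK293 nucleus and cytoplasm was 0.62 (adjusted p = 0.004), that of miR-320b 1.42 (adjusted p = 0.0031) and that of miR-484 0.13 (adjusted p = 0.69). Scaling by the abundant entries, those with at least 10 counts in every library, gave 0.62 (adjusted p = 0.0016), 1.41 (adjusted p = 0.00081) and 0.13 (adjusted p = 0.64), with the median of all entries at −0.79. With the names of subconfluent cytoplasm and confluent nucleus exchanged, the differences were −0.02 for miR-320a-3p (adjusted p = 0.94), 0.65 for miR-320b (adjusted p = 0.18) and −0.52 for miR-484 (adjusted p = 0.091), so none of the 3 was called.

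Subconfluent nucleus and confluent cytoplasm keep their names under both namings, and between them miR-320a-3p and miR-320b differed in HEK293 whichever naming holds. This contrast, chosen after seeing the data, also carries the difference in confluency. miR-320a-3p was 1.10 log2 units higher in subconfluent nuclei (SE 0.21, adjusted p = 0.00064 by edgeR) and miR-320b 2.58 units (SE 0.41, adjusted p = 0.00015), 2 of 4 members where 35.4% of all entries were called. The values were 0.68 (adjusted p = 0.026) and 2.16 (adjusted p = 0.0015) among entries detected in the IP, and without the filter the former was 0.79 (adjusted p = 0.059). miR-484 differed by 0.12 (SE 0.28, adjusted p = 0.75), and its direction turned under library totals (−0.17), with abundant-entry scaling (−0.21), without the filter (−0.19) and among entries detected in the IP (−0.31).

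In A375, miR-320b was the member called between the fractions. miR-320a-3p had 3828, 4664 and 5177 CPM in confluent and 5693, 6170 and 6986 in subconfluent cytoplasm, and 5010, 5648 and 8273 in confluent and 7334, 9403 and 10470 in subconfluent nuclei. Subconfluent nuclei held 3 of the 4 highest values, and nuclear and cytoplasmic libraries overlapped. The difference of nucleus from cytoplasm was 0.50 (SE 0.23, adjusted p = 0.13 by edgeR), which DESeq2 called (0.60, adjusted p = 0.02). miR-320b had 0 to 407 CPM in the 6 cytoplasmic and 372 to 1595 in the 6 nuclear libraries, a log2 fold change of 1.38 (SE 0.44, adjusted p = 0.025). It passed the filter with 3 libraries of at least 10 counts, 2 of them nuclear, and was 1 call among the 3 members tested where 21.5% of 265 entries were called. That call was lost without confluent cytoplasm replicate 1 (1.29, adjusted p = 0.085), with abundant-entry scaling (1.31, adjusted p = 0.064), without the filter (1.33, adjusted p = 0.12) and with the names exchanged (1.06, adjusted p = 0.065). Without confluent cytoplasm replicate 2, confluent nucleus replicate 1 or subconfluent nucleus replicate 3, miR-320b did not pass the filter and 0 members were called. miR-484 ran from 1459 to 2296 CPM in cytoplasm and from 934 to 2908 in nuclei, a difference of −0.01 (SE 0.29, adjusted p = 0.99).

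Between the pair of A375 groups that both namings share, miR-320a-3p was 1.00 higher in subconfluent nuclei than in confluent cytoplasm (SE 0.33, adjusted p = 0.033 by edgeR) and miR-320b 2.44 higher (SE 0.60, adjusted p = 0.0074). These were 2 of the 3 members tested, where 24.9% of entries were called. The miR-320a-3p call did not survive the omission of any of the 3 confluent cytoplasmic libraries or of subconfluent nucleus replicates 2 and 3 (0.77 to 1.07, adjusted p from 0.057 to 0.14), nor library totals (0.82, adjusted p = 0.08). It was also lost without the filter (0.65, adjusted p = 0.63). The miR-320b value was 2.22 (adjusted p = 0.058) without confluent cytoplasm replicate 1. miR-484 differed by 0.26 (SE 0.41, adjusted p = 0.66).

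In SHSY5Y nuclei miR-320a-3p was again higher than in cytoplasm under TMM scaling, with all 5 nuclear above all 6 cytoplasmic libraries. It had 2104, 3150 and 3651 CPM in subconfluent and 2543, 2858 and 3474 in confluent cytoplasm, then 4865, 4977 and 5020 in subconfluent and 5341 and 6526 in confluent nuclei. The log2 fold change was 0.88 (SE 0.20, adjusted p = 0.00018 by edgeR), with 0.75 (adjusted p = 0.012) in subconfluent and 1.00 (adjusted p = 0.0053) in confluent cells, where 60.9% and 54.9% of entries were called. miR-484 had 1643 to 1807 CPM in subconfluent and 1242 to 1611 in confluent cytoplasm, 2183 to 2919 in subconfluent nuclei, and 1571 and 2706 in confluent nuclei. Its fold change was 0.53 (SE 0.22, adjusted p = 0.031). Both members tested were called, where 71.3% of 348 entries were called and 33.9% were called higher.

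The SHSY5Y values depended on what the other entries did. The IP was made from HEK293 only, so entries detected in it need not be those bound by AGO in SHSY5Y. Entries not detected in the IP took 64.9% ± 3.04 of counts in confluent and 33.4% ± 5.32 in subconfluent cytoplasm, against 10.8% ± 1.09 in subconfluent nuclei (SD, n = 3 each), and 23.4% and 31.5% in the 2 confluent nuclear libraries. Among the 191 tested entries that were detected in the IP, the median was 0.81, beside 0.88 for miR-320a-3p. Fitted among those entries only, miR-320a-3p differed by 0.08 (adjusted p = 0.72) and miR-484 by −0.28 (adjusted p = 0.3), and with abundant-entry scaling by 0.01 (adjusted p = 0.97) and −0.36 (adjusted p = 0.12). With names exchanged they differed by −0.13 (adjusted p = 0.58) and 0.27 (adjusted p = 0.3), and without the filter by 0.64 (adjusted p = 0.069) and 0.26 (adjusted p = 0.75). Neither call was kept in any of these 4 fits. The miR-484 call also ended under library totals (0.30, adjusted p = 0.2) and without any of the 3 confluent cytoplasmic libraries, confluent nucleus replicate 2, subconfluent cytoplasm replicates 2 and 3 or subconfluent nucleus replicates 1 and 2, with values from 0.11 to 0.47. Without confluent cytoplasm replicate 3, the miR-320a-3p value was 0.57 (adjusted p = 0.013).

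Within single confluency states the SHSY5Y calls of miR-320a-3p were less firm. The subconfluent value ended between 0.44 and 0.59 (adjusted p from 0.062 to 0.17) without subconfluent cytoplasm replicates 2 or 3 or subconfluent nucleus replicates 1 or 2, and was 0.17 (adjusted p = 0.57) with library totals. In confluent cells the value was 0.70 (adjusted p = 0.066) without confluent cytoplasm replicate 3 and 0.74 (adjusted p = 0.1) without confluent nucleus replicate 2. Between subconfluent nucleus and confluent cytoplasm, miR-320a-3p differed by 0.74 (SE 0.26, adjusted p = 0.0092) and miR-484 by 0.79 (SE 0.29, adjusted p = 0.011), where 86.2% of entries were called. Their signs turned among entries detected in the IP, to −0.72 (adjusted p = 0.0077) and −0.67 (adjusted p = 0.03), and those entries as a whole had a median of 1.56 in this contrast. Relative to all entries miR-320a-3p and miR-484 thus lay above the cytoplasmic level, and relative to miRNAs detected in the HEK293 IP they lay below it. Library totals gave 0.38 (adjusted p = 0.15) and 0.44 (adjusted p = 0.14), and the fit without the filter 0.74 (adjusted p = 0.13) and 0.77 (adjusted p = 0.17). The miR-320a-3p call also ended without confluent cytoplasm replicates 1 (0.57, adjusted p = 0.074) or 3 (0.42, adjusted p = 0.17) or subconfluent nucleus replicate 2 (0.56, adjusted p = 0.062), and that of miR-484 ended without any of the 3 confluent cytoplasmic libraries (0.52 to 0.67) or subconfluent nucleus replicate 2 (0.50, adjusted p = 0.13).

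The localization differences were compared between lines in 1 fit over all fraction libraries. miR-320a-3p differed by 0.53 more in HEK293 than in A375 (SE 0.25, adjusted p = 0.17), by 0.13 more in HEK293 than in SHSY5Y (SE 0.26, adjusted p = 0.85) and by 0.40 more in SHSY5Y than in A375 (SE 0.25, adjusted p = 0.26). None of the 4 members tested was called in any of these 3 contrasts, where 13%, 6.69% and 30.3% of entries were called. A difference in localization between the lines was thus not resolved for any of them, and miR-320a-3p in HEK293 against A375 reached an unadjusted p of 0.04.

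**Figure D2:**
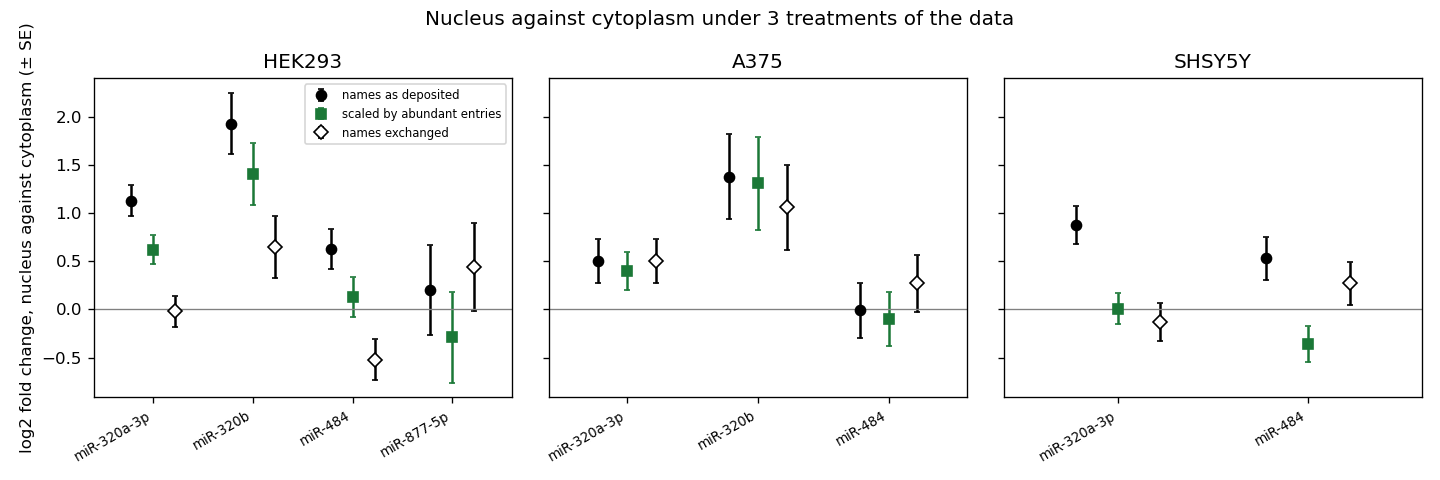
Log2 fold change of nucleus against cytoplasm (± SE) for the members tested in each line, with names as deposited and TMM over all entries (black circles), with scaling by abundant entries (green squares) and with the 2 group names exchanged (open diamonds). In HEK293, miR-320a-3p moves from 1.13 to 0.62 and −0.02, and miR-320b from 1.93 to 1.41 and 0.65.

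Confluency was compared within each fraction, the question for which the cells were grown to 2 densities. Under the deposited names no member was called in any of the 6 comparisons, although many other entries were. The share of entries called was 28.4% for the cytoplasm and 1.16% for the nuclei of HEK293, 28.3% and 24.9% for those of A375, and 58.9% and 39.9% for those of SHSY5Y. The miR-320a-3p values of confluent against subconfluent cells were −0.04 and 0.09 in HEK293 cytoplasm and nucleus, −0.46 and −0.53 in A375, and 0.01 and 0.26 in SHSY5Y. Its libraries separated by confluency in A375 cytoplasm (3828 to 5177 CPM when confluent and 5693 to 6986 when subconfluent, adjusted p = 0.33) and in SHSY5Y nuclei (5341 and 6526 CPM against 4865 to 5020, adjusted p = 0.51), without passing the test in either. The directions were opposite, and the share of all entries that separated was not counted, so nothing is read from this. In SHSY5Y miR-320a-3p was called among entries detected in the IP (0.71, adjusted p = 0.014 in cytoplasm and 0.90, adjusted p = 0.0062 in nuclei) and, in nuclei, with library totals (0.75, adjusted p = 0.029). At an unadjusted p under 0.05 stood miR-484 in HEK293 cytoplasm and miR-320b in A375 nuclei, and DESeq2 called 1 member in HEK293 cytoplasm and 0 in each of the others.

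miR-484 in HEK293 cytoplasm was the member nearest to a confluency call in the fractions. Its confluent libraries (3325 to 4259 CPM) lay above the subconfluent ones (2007 to 2669 CPM), a log2 difference of 0.63 (SE 0.27, adjusted p = 0.093 by edgeR). It was called with library totals (0.70, adjusted p = 0.049), DESeq2 (0.77, adjusted p = 0.038), all mapped libraries (0.81, adjusted p = 0.027), the miR-320 members summed (0.74, adjusted p = 0.045) and GC adjustment (1.16, adjusted p = 0.0013), and without confluent cytoplasm replicate 3 (0.80, adjusted p = 0.044). With the names exchanged it was −0.52 (adjusted p = 0.23). Exchanged names also brought calls of miR-320a-3p, which was then −1.2 in HEK293 cytoplasm (adjusted p = 0.00072), −1.06 in HEK293 nuclei (adjusted p = 0.00036), −1.0 in SHSY5Y cytoplasm (adjusted p = 0.0053) and −0.75 in SHSY5Y nuclei (adjusted p = 0.012). These are the nucleus against cytoplasm contrasts above with the sign turned, since the exchange sets the same groups against each other.

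Among AGO-bound miRNAs of HEK293, miR-320a-3p rose with confluency, and miR-484 passed the test only when libraries were paired by replicate number or scaled by library totals. It had 2948, 3028 and 3118 CPM in the subconfluent and 4614, 4808 and 5142 in the confluent IP, without overlap. The log2 fold change was 0.68 (SE 0.08, adjusted p = 0.00032 by edgeR), and its share of counts rose 1.72-fold (1.68 to 1.77). These values come from the fit without pairing, in which it was the only call among the 5 members tested. In that fit 35.2% of 537 entries were called and 18.4% were called higher. With pairing 2 members were called, and the share of all entries called with pairing is not given here. Omission of any 1 library kept the miR-320a-3p call of the fit without pairing. Subconfluent and confluent IP libraries were made in separate pools, so that pool and confluency cannot be told apart.

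The paralogs were not called in the IP. miR-320b had 117, 134 and 141 CPM in subconfluent and 132, 138 and 148 in confluent libraries, a difference of 0.08 (SE 0.13, adjusted p = 0.67). miR-320c had 25.4, 26.3 and 42.1 against 17.7, 31.4 and 33.6 CPM, a difference of −0.17 (SE 0.31, adjusted p = 0.72). miR-320d had 2 counts in the 3 subconfluent and 4 in the 3 confluent libraries. A different change in miR-320a-3p and its paralogs could not pass the direct test on the paralog share, where an exact permutation test of 3 against 3 libraries gave its smallest p, 0.1 (adjusted p = 0.15).

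miR-484 had 3411, 3753 and 3794 CPM in the subconfluent and 3713, 4154 and 4289 in the confluent IP, overlapping by 1 library. The difference was 0.15 (SE 0.09, adjusted p = 0.23), while a fit that paired the libraries by replicate number gave 0.15 with adjusted p = 0.0049, the second of the 2 calls. Library totals also called it (0.25, adjusted p = 0.031). miR-877-5p had 11.0, 18 and 21.6 against 13.5, 25.8 and 29.7 CPM, a difference of 0.47 (SE 0.36, adjusted p = 0.34). Set against the same contrast in HEK293 cytoplasm, the miR-320a-3p difference in the IP was larger by 0.74 (SE 0.26, adjusted p = 0.092), and against that in nuclei by 0.53 (SE 0.28, adjusted p = 0.49). No member was called in either of these contrasts, where 6.34% and 0.865% of 694 entries were called.

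The IP was compared with the HEK293 fractions to ask which members took a larger share of AGO-bound than of fraction miRNA. The labels and the study's account of the miRNA IP give total cell lysate as its input, while its methods section on the pulldown names the cytoplasmic fraction. IP and fractions differ in pool and depth as well, which cannot be told apart. miR-320a-3p took 0.276%, 0.285% and 0.317% of counts in the subconfluent and 0.480%, 0.498% and 0.532% in the confluent IP. In cytoplasm it took 0.884% to 0.991% and in nuclei 1.48% to 1.88%, so that each IP library lay below each fraction library. The fitted difference was −0.65 against cytoplasm (SE 0.13, adjusted p = 3.9e-05 by edgeR) and −1.65 against nuclei (SE 0.14, adjusted p = 6.7e-12). Without the filter on low entries the first was −0.20 (adjusted p = 0.37), and with abundant-entry scaling it was −1.18 and among IP-detected entries −1.33.

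miR-320b and miR-320c were also lower in the IP. miR-320b took 0.0107% to 0.0152% of counts in the 6 IP libraries, 0.0348% to 0.0496% in cytoplasm and 0.0528% to 0.241% in nuclei, with no overlap. Its differences were −1.02 (SE 0.24, adjusted p = 0.00028) and −2.84 (SE 0.28, adjusted p = 1.8e-10), the former being −1.62 with library totals and −0.56 without the filter. miR-320c took 0.00171% to 0.00428% in the IP and 0.00418% to 0.0165% in cytoplasm, overlapping by 1 cytoplasmic library with 1 count. Its differences were −1.42 (SE 0.38, adjusted p = 0.0013) and −3.01 (SE 0.51, adjusted p = 6.7e-06).

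miR-484 went the other way. It took 0.342% to 0.432% of counts in the IP, 0.222% to 0.477% in cytoplasm and 0.234% to 0.528% in nuclei, so its plain shares overlapped. Its fitted difference from cytoplasm was 0.87 (SE 0.15, adjusted p = 7.4e-06), yet it was 0.26 with library totals (adjusted p = 0.11), 0.34 with abundant-entry scaling (adjusted p = 0.046), 0.18 among entries detected in the IP (adjusted p = 0.29) and 0.35 with exchanged names (adjusted p = 0.066). Against nuclei the difference was 0.35 (SE 0.17, adjusted p = 0.082), with 0.82 (adjusted p = 2.5e-07) by DESeq2, 0.83 (adjusted p = 7.7e-05) without the filter, 0.86 (adjusted p = 1.4e-05) with exchanged names and −0.14 with library totals. Without subconfluent nucleus replicate 3 it was 0.46 (adjusted p = 0.014). Adjustment for GC content gave 3.03 and 1.56 for miR-484, a GC-rich sequence at 63.6%.

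Among the 5 members tested, miR-877-5p showed the largest gap between the fractions and the AGO IP. It took 0.001% to 0.00329% of counts in the 6 IP libraries, on 10 to 37 counts each. In cytoplasm it took 0.0126% to 0.0456% and in nuclei 0.00856% to 0.0563%, on 1 to 17 counts a library, so that every IP library lay below every fraction library. The log2 difference was −3.27 against cytoplasm (SE 0.34, adjusted p = 2.6e-10) and −3.37 against nuclei (SE 0.58, adjusted p = 7e-06). With GC adjustment, miR-877-5p being 65% GC, they were −0.86 (adjusted p = 0.012) and −1.95 (adjusted p = 0.0012), and without confluent nucleus replicate 1 the second was −2.75 (adjusted p = 0.075).

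All 5 members tested were thus called in the IP against cytoplasm, 4 lower and 1 higher, where 73.5% of the 694 entries were called, 35% lower and 38.5% higher. Against nuclei 4 were called, all lower, where 57.6% of entries were called. The median log2 difference from cytoplasm was −1.02 over the 5 members, 0.37 over all entries and 1.06 over entries detected in the IP.

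**Figure D3:**
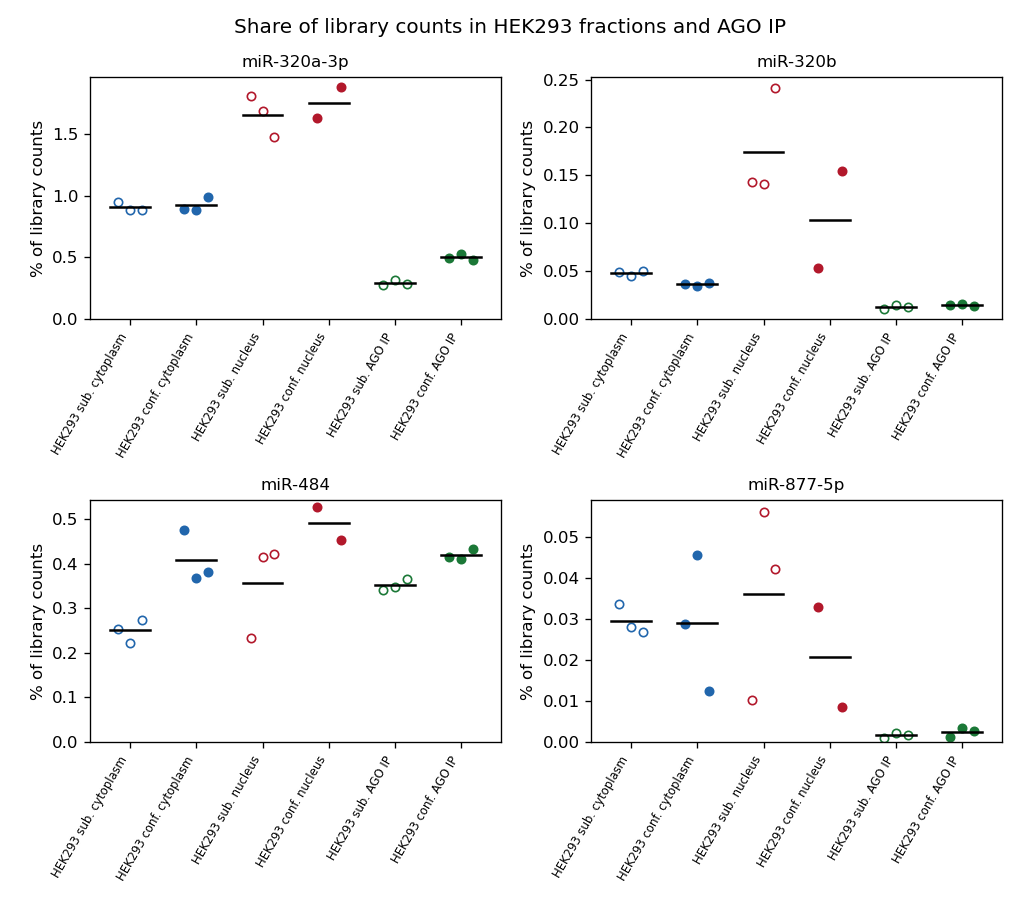
Percent of library counts taken by 4 members in HEK293 cytoplasm (blue), nuclei (red) and AGO IP (green), 1 point per library, open when subconfluent and filled when confluent, with bars at group means. miR-320a-3p falls from 1.66% and 1.76% in nuclei to 0.293% and 0.503% in the IP, while miR-484 keeps 0.352% and 0.42% in the IP.

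Ratios within a library do not depend on scaling between libraries. On the log2 scale, with a pseudocount of 0.5, the ratio of miR-484 to miR-320a-3p was 0.13, 0.31 and 0.36 in the subconfluent IP and −0.37, −0.26 and −0.15 in the confluent IP. It was −1.99 to −0.90 in the 6 cytoplasmic and −2.93 to −1.62 in the 5 nuclear HEK293 libraries, so the IP stood apart from both. The IP exceeded cytoplasm by 1.52 (p = 0.0022 and adjusted p = 0.0065 over 6 comparisons, exact two-sided permutation test, the smallest p this design gives) and nuclei by 2.08 (p = 0.0022, adjusted p = 0.0065, the smallest as well). Exchanged names left these at 1.45 and 2.05, each with adjusted p = 0.0065 in the exact permutation test. In the fractions the ratio was lower in nuclei than in cytoplasm by 0.56 in HEK293 (exact permutation adjusted p = 0.1), 0.53 in A375 (adjusted p = 0.095) and 0.32 in SHSY5Y (adjusted p = 0.13), none past the threshold. Without A375 subconfluent cytoplasm replicate 1 the A375 difference was −0.66 with an exact permutation adjusted p of 0.035. Between confluent and subconfluent IP it was −0.53 with no overlap, where 3 against 3 libraries cannot go below p = 0.1 in an exact test.

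The share of miR-320b, miR-320c and miR-320d in the counts of the miR-320 family told how far the paralogs moved apart from miR-320a-3p. In the IP it was 4.56%, 5.14% and 5.58% in subconfluent and 3.13%, 3.42% and 3.48% in confluent libraries, a difference of −1.75 percentage points (p = 0.1, the smallest an exact permutation test of 3 against 3 gives). In HEK293 cytoplasm the share was 5.60%, 6.25% and 6.93% in subconfluent and 4.44%, 4.89% and 5.80% in confluent libraries. Subconfluent nuclei had 10.1%, 11.1% and 16.5% and confluent nuclei 3.89% and 9.09%, of which 1 library lay below the cytoplasm. Nuclei exceeded cytoplasm by 4.49 points (exact permutation p = 0.03, adjusted p = 0.074), and by 6.05 (adjusted p = 0.014) without confluent nucleus replicate 1. In counts pooled over the group, the share was 13.4% (95% Wilson interval 11.3 to 15.8) of 886 family counts in subconfluent nuclei and 6.38% (5.06 to 8.01) of 1066 in subconfluent cytoplasm, for counting error only.

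In A375 the family share averaged 9.52% ± 4.25 in nuclei and 6.02% ± 3.1 in cytoplasm (SD, n = 6 each, exact permutation adjusted p = 0.16), and in SHSY5Y 5.2% ± 3.69 (n = 5) and 3.97% ± 2.83 (n = 6, adjusted p = 0.54). In A375 the subconfluent nuclei were highest again, at 8.47%, 9.88% and 17.0%. Of the 12 fraction groups, the share over pooled counts was highest in subconfluent HEK293 nuclei and subconfluent A375 nuclei (13.1%, interval 10.1 to 16.7). The IP share differed from that of HEK293 cytoplasm by −1.43 points (exact permutation p = 0.037, adjusted p = 0.074) and from that of nuclei by −5.92 points (p = 0.0087, adjusted p = 0.052). The latter became −7.48 points (adjusted p = 0.014) without confluent nucleus replicate 1 and −5.20 points (adjusted p = 0.013) with names exchanged.

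**Figure D4:**
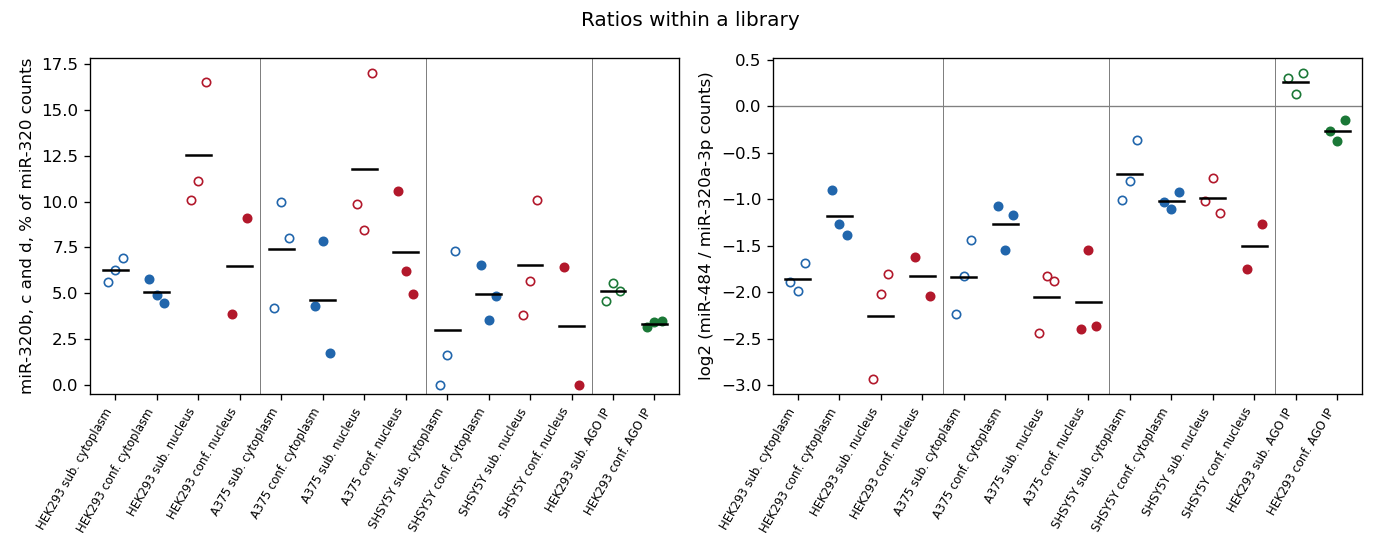
Left, percent of miR-320 family counts that are miR-320b, miR-320c or miR-320d, and right, log2 ratio of miR-484 to miR-320a-3p counts, 1 point per library of each group, coloured as in the other plots and with bars at group means. The AGO IP libraries (green) have ratios from −0.37 to 0.36, above the −2.93 to −0.90 of the HEK293 fractions.

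Levels of the members also differed between the lines, in a fit over all 34 fraction libraries in which CPM values are scaled across lines. miR-320a-3p was highest in HEK293 nuclei (means of 16340 CPM in confluent and 15320 in subconfluent cells), followed by A375 subconfluent nuclei (9767), HEK293 confluent cytoplasm (8095) and HEK293 subconfluent cytoplasm (7845). Then came A375 subconfluent cytoplasm (6509), A375 confluent nuclei (6479), SHSY5Y confluent nuclei (5706), SHSY5Y subconfluent nuclei (5447) and A375 confluent cytoplasm (5128), and last SHSY5Y subconfluent (3313) and confluent cytoplasm (2842). Of the 11 pairs of neighbours in this order, 3 did not overlap: HEK293 subconfluent nuclei from A375 subconfluent nuclei, HEK293 from A375 subconfluent cytoplasm, and A375 confluent cytoplasm from SHSY5Y subconfluent cytoplasm. For miR-484, from 4586 CPM in HEK293 confluent nuclei to 1392 in SHSY5Y confluent cytoplasm, all 11 neighbours overlapped, and so they did for miR-877-5p, from 347.5 CPM in HEK293 subconfluent nuclei to 48.5 in A375 confluent cytoplasm. miR-320b ran from 1688 CPM in HEK293 subconfluent nuclei to 72.7 in SHSY5Y subconfluent cytoplasm, with 1 separate pair of neighbours.

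miR-320a-3p and miR-484 had their highest fitted level in HEK293. So did miR-320b and miR-877-5p, for which the filter favoured that direction. The 244 tested entries detected in the IP, which was made from HEK293, leaned the same way. Their median was −0.53 in A375 against HEK293 and −0.35 in SHSY5Y against HEK293. Averaged over the 4 groups of a line, miR-320a-3p was −1.44 in SHSY5Y against HEK293 (SE 0.13, adjusted p = 2.6e-13 by edgeR), with every SHSY5Y library below every HEK293 library. miR-320a-3p and miR-484, which reached 10 counts in every library, were called lower in SHSY5Y. Calls of miR-320b and miR-877-5p went the same way, but these passed the filter mainly or only through HEK293 and add no support. Of the 478 entries tested, 33.1% were called lower and 70.9% in either direction. miR-320b differed most, by −2.17 (SE 0.35, adjusted p = 4.7e-07), and by −3.40 without SHSY5Y confluent nucleus replicate 1. miR-484 differed by −0.75 (SE 0.17, adjusted p = 0.00015) and miR-877-5p by −0.93 (SE 0.35, adjusted p = 0.017). miR-877-5p reached 10 counts in 5 of 11 HEK293 libraries and in 0 of A375 and SHSY5Y, so it passed the filter only through the line where it was high, and its direction here and against A375 is a description. miR-320b passed mainly through HEK293 (9 libraries, against 3 in A375 and 1 in SHSY5Y). The miR-877-5p call ended without HEK293 confluent nucleus replicate 1 (−0.59, adjusted p = 0.34), without the filter (−0.87, adjusted p = 0.12), with abundant-entry scaling (−0.65, adjusted p = 0.096) and among entries detected in the IP (−0.49, adjusted p = 0.2), where that of miR-484 ended too (−0.32, adjusted p = 0.055).

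A375 against HEK293 gave −0.73 for miR-320a-3p (SE 0.12, adjusted p = 1.7e-06) and −0.78 for miR-484 (SE 0.17, adjusted p = 8.1e-05). miR-877-5p was −1.53 (SE 0.40, adjusted p = 0.00082) and −1.19 without HEK293 confluent nucleus replicate 1 (adjusted p = 0.085). These 3 calls, of which that of miR-877-5p is only a description, stood where 32.6% of entries were called lower and 65.9% in either direction. miR-320b at −0.64 (SE 0.30, adjusted p = 0.059) was not called. miR-320b was called with library totals (−0.88, adjusted p = 0.0076) and GC adjustment (−0.79, adjusted p = 0.012), and when 1 of 6 single libraries was left out (−0.69 to −0.89). Among entries detected in the IP, miR-320a-3p was −0.19 (adjusted p = 0.1) and miR-484 −0.24 (adjusted p = 0.14), and with abundant-entry scaling they were −0.45 (adjusted p = 0.0012) and −0.50 (adjusted p = 0.0069), where the median of all entries moved from 0.03 to 0.32. A375 exceeded SHSY5Y in miR-320a-3p (0.71, SE 0.13, adjusted p = 7.5e-06) and miR-320b (1.53, SE 0.37, adjusted p = 0.00054), 2 of 4 members where 55.6% of entries were called. Without SHSY5Y confluent nucleus replicate 1 the miR-320b value was 2.75. miR-484 (−0.03, adjusted p = 0.91) and miR-877-5p (−0.60, adjusted p = 0.24) were not called between these lines, the latter being −1.05 (adjusted p = 0.049) without A375 confluent nucleus replicate 3.

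As a description of patterns, miR-320a-3p and miR-484 were each correlated with the other 477 entries of this fit over the 12 fraction group means of log2 CPM, which share their libraries and scaling. The entries most like miR-320a-3p were miR-423-5p (Pearson r = 0.97), miR-197-3p (0.97) and miR-339-5p (0.93). With miR-320a-3p, miR-320b had r = 0.89, miR-484 0.75 and miR-877-5p 0.55. For miR-484 the closest were miR-25-3p (0.93), miR-103a-3p (0.89) and miR-331-3p (0.89).

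Of the opposite arms, that of miR-320a was rare and that of miR-877 was about as abundant as its partner in the fractions. miR-320a-5p had 21 counts in 13 fraction libraries and 0 in the IP, where 5796 and 24725 counts fell on the 3p arm, and miR-320e had 2 counts in all. miR-877-3p had 147 counts in the fractions, close to the 153 of miR-877-5p, but 275 against 127 in the IP, so that the 3p arm led there. Its difference of IP from cytoplasm was −1.84 (SE 0.32, adjusted p = 7.2e-06), beside −3.27 for miR-877-5p, and in the confluent against the subconfluent IP it was −0.46 (SE 0.22, adjusted p = 0.13).

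Entries of other mirtrons were mostly low. Of a list of 22 entries of miRNAs described as mirtrons, with miR-877-3p among them, 3 passed the filter in HEK293, 3 in SHSY5Y and 1 in A375. miR-1234-3p, with the most counts of the list in the fractions, had 407 counts in the 6 HEK293 cytoplasmic libraries, 30 in the 5 nuclear ones and 5 in the 6 IP libraries. miR-1237-5p had 97, 1 and 0, and miR-1228-5p 64, 5 and 8. Among HEK293 libraries these 3 reached 10 counts only in cytoplasm, where they were high, so the filter itself set their direction. They stood at −1.55, −5.27 and −3.56 in HEK293 nuclei against cytoplasm, where 35.1% of all entries were called lower, and nothing is read from that, nor from their values in the IP. In SHSY5Y the entries tested were miR-1233-3p (191 cytoplasmic and 40 nuclear counts), miR-1234-3p (107 and 15) and miR-1237-5p (123 and 29), which passed mainly through cytoplasmic libraries too, where 37.4% of entries were called lower. In A375 miR-1237-5p differed by −0.08 (adjusted p = 0.93). The other 3 list entries tested with the IP passed through IP libraries. Against cytoplasm miR-877-3p was −1.84, miR-1229-3p −1.55 and miR-1226-3p 0.54 (adjusted p = 0.21). Against nuclei, 1 of the 6 list entries tested was called, miR-1234-3p, which passed through cytoplasmic libraries, where 57.6% of entries were called.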

How the data were processed

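Per the labels and the study's methods, reads were trimmed with cutadapt, aligned by Bowtie2 against human miRNAs and summed per entry by bedtools coverage, with hg38 as the build. The deposited table holds raw counts for 2657 entries under 2 header lines, with 1 entry (miR-886) missing in SHSY5Y. The authors applied no normalization to these counts.

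The members and lists were chosen with earlier results of these data known. The 6 members are named throughout. Also named are their opposite arms and miR-320e, the 3 mirtron entries with the highest mean share in the fractions (miR-1226-3p, miR-1228-5p and miR-1229-3p were named after their values were seen), and the 3 entries most like miR-320a-3p and miR-484.

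Tests used edgeR 4.0.16 with limma 3.58.1 in R 4.3.3: a quasi-likelihood test after TMM scaling, with p-values adjusted by Benjamini and Hochberg's method over every entry tested and a threshold of 0.05. An entry was tested where 3 or more libraries of the fit had 10 counts or more. There was 1 fit for each line, 1 over the 3 lines, 1 for the IP and 1 for the IP with the HEK293 fractions. CPM are counts per 1e+06 after TMM scaling, log2 CPM used a prior count of 2, and 2 libraries under 1000 counts were left out. The code was tested on simulated counts with known changes. Under TMM, 2-fold changes were called in the right direction for 53.3% of changed entries in HEK293 nucleus against cytoplasm, 41.4% in A375 and 67.9% in SHSY5Y. In IP against cytoplasm it was 30.4%, with a median error of 0.32 log2 units. Entries with a mean of at least 2 counts in the fractions gave 77.8% and 0.25 there. A 2-fold change can thus be missed in these contrasts, and the SE of a member tells how precise its own value is. Confluency within a fraction was not simulated, and neither was a difference in composition between groups. Intervals and ratios cover counting error only, at 95%. Hairpins were placed with an annotation of GRCh38, the same build as hg38.

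The replicate numbers were taken to pair the IP libraries, which share a 3′ adapter by number and whose deviations from the group means correlated in all 3 pairs (r = 0.58, 0.34 and 0.39 across entries). The main IP fit nevertheless left this pairing out, so its SE and p-values do not use it, and the paired fit was an alternative. Fraction libraries were not paired in the main fits. Deviations of cytoplasm and nucleus libraries with the same number correlated from −0.16 to 0.26 across entries, which does not settle whether they are pairs. Alternatives were library totals, DESeq2 1.42.0, no filter, a replicate block, all mapped libraries, exchanged names, entries detected in the IP only, a GC offset, the summed miR-320 family, a pseudocount of 2, pooled counts and leaving out each library. Chosen after seeing the data were the scaling by abundant entries, the contrast of subconfluent nucleus with confluent cytoplasm, and the differences between lines and between IP and fractions.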

Additional observations from a re-analysis of the deposited data

How the results depend on the processing

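Under alternatives other than leaving out a library, 413 values of single members kept their direction and side of the threshold, 48 turned, 47 lost a call and 19 gained one. Of the counts, shares and ratios, 124 were kept and 30 counts or values moved. The 3 members called between HEK293 nucleus and cytoplasm stayed 3 in number in all 11 fits that left out 1 library, and the 5 called between IP and cytoplasm stayed 5 in all 12. Depth limits miR-320c and miR-320d, which have a few counts per fraction library. The causes of the changes below were not tested.

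Pairing by the replicate number (a block in the fit) raised the members called between confluent and subconfluent IP from 1 to 2, with no share of all entries given for the paired fit. In the other comparisons of fractions the block, by number alone or by culture, moved no count of members called by over 1.5 times. Of the miR-320b value of A375 against HEK293 it made a call (−0.67, adjusted p = 0.04).

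Counts of members called changed as follows. The share of all entries called also changes with the setting, and for most settings it is not given here. These counts are therefore no result about the members. HEK293 nucleus against cytoplasm went from 3 to 0 with names exchanged. A375 nucleus against cytoplasm went from 1 to 2 with DESeq2 and to 0 without the filter, with abundant-entry scaling and with names exchanged. SHSY5Y nucleus against cytoplasm went from 2 to 1 with library totals, GC adjustment (for which miR-320a-3p has no value) and all mapped libraries, and to 0 without the filter, among entries detected in the IP, with abundant-entry scaling and with names exchanged. Confluency in HEK293 cytoplasm went from 0 to 1 with library totals, DESeq2, GC adjustment and all mapped libraries and to 2 with names exchanged, and in HEK293 nuclei from 0 to 3 with names exchanged. The exchanged contrasts are nucleus against cytoplasm in confluent and in subconfluent HEK293, where 22.3% and 54.2% of entries were called. Under the deposited names the shares were 28.4% in cytoplasm and 1.16% in nuclei. Confluency in SHSY5Y went from 0 to 1 with names exchanged and among entries detected in the IP in both fractions, with GC adjustment in cytoplasm and with library totals in nuclei. With names exchanged, 54.9% of entries were called in SHSY5Y cytoplasm and 60.9% in SHSY5Y nuclei. The IP count went from 1 to 2 with library totals and to 0 with GC adjustment, in which miR-320a-3p, the member called, has no value. Among entries detected in the IP, A375 against HEK293 went from 3 to 1 and SHSY5Y against HEK293 from 4 to 2. A375 against SHSY5Y went from 2 to 1 with GC adjustment, where miR-320a-3p again has no value.

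Directions turned as follows. With names exchanged, nucleus against cytoplasm of miR-320a-3p was −0.02 in HEK293 (−0.09 when subconfluent) and −0.13 in SHSY5Y (−0.26 when subconfluent, −0.01 when confluent), and that of miR-484 −0.52 in HEK293 and 0.27 in A375. Confluency of miR-320a-3p was then −1.06 in HEK293 nuclei, −1.0 in SHSY5Y cytoplasm and −0.75 in SHSY5Y nuclei, and that of miR-484 −0.52 in HEK293 cytoplasm. The ratio of miR-484 to miR-320a-3p in SHSY5Y was 0.36 with names exchanged and 0.14 with all mapped libraries, where the sign had been negative. The paralog share of IP against nucleus kept its sign, at −5.195 with names exchanged, and passed the threshold. Among entries detected in the IP, miR-877-5p was −0.27 in HEK293 nucleus against cytoplasm, miR-484 0.07 in A375 and −0.28 in SHSY5Y, and miR-320a-3p −0.01 in subconfluent SHSY5Y. Between subconfluent nucleus and confluent cytoplasm, miR-484 was then −0.31 in HEK293 and −0.67 in SHSY5Y and miR-320a-3p −0.72 in SHSY5Y, and miR-484 was 0.08 in A375 against SHSY5Y. With abundant-entry scaling, chosen after seeing the data, miR-877-5p was −0.29 in HEK293 and miR-484 −0.36 in SHSY5Y nucleus against cytoplasm, and miR-320a-3p −0.03 in subconfluent SHSY5Y and −0.05 for confluency in HEK293 nuclei. Between subconfluent nucleus and confluent cytoplasm miR-484 was then −0.21 in HEK293 and −0.30 in SHSY5Y and miR-320a-3p −0.35 in SHSY5Y. With library totals miR-877-5p was −0.02 in HEK293 nucleus against cytoplasm, miR-484 −0.17 between HEK293 subconfluent nucleus and confluent cytoplasm and −0.14 in IP against nucleus. Without the filter, miR-484 was −0.19 between HEK293 subconfluent nucleus and confluent cytoplasm and −0.06 in A375, and confluency of miR-320a-3p was −0.12 in SHSY5Y nuclei. GC adjustment gave miR-484 −0.19 and miR-320b −0.01 in the IP, and miR-484 0.14 in A375 nucleus against cytoplasm and 0.05 in A375 against SHSY5Y.

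Confluency of miR-320a-3p in HEK293 cytoplasm was 0.03 with library totals, 0.10 with DESeq2, 0.12 without the filter, 0.06 with the miR-320 members summed and 0.14 with all mapped libraries. In SHSY5Y cytoplasm it was −0.21 with library totals, −0.06 with DESeq2, −0.08 without the filter and −0.09 with all mapped libraries. miR-484 was 0.08 in A375 nucleus against cytoplasm with DESeq2, and 0.03 in A375 against SHSY5Y with DESeq2 and 0.07 with all mapped libraries.

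Leaving out each library gave these ranges. Members called were 0 to 1 for A375 nucleus against cytoplasm, 0 to 1 for confluency in HEK293 cytoplasm (1 without confluent cytoplasm replicate 3) and 1 to 2 for SHSY5Y nucleus against cytoplasm. miR-320a-3p ranged from −0.19 to 0.21 for confluency in HEK293 cytoplasm, −0.14 to 0.31 in HEK293 nuclei and −0.26 to 0.18 in SHSY5Y cytoplasm, and miR-320c from −0.32 to 0.09 in the IP. miR-484 ranged from −0.16 to 0.09 in A375 against SHSY5Y, −0.12 to 0.13 in A375 nucleus against cytoplasm and −0.08 to 0.35 between HEK293 subconfluent nucleus and confluent cytoplasm, and miR-877-5p from −0.38 to 0.44 in HEK293 nucleus against cytoplasm. The paralog share ranged from −7.48 to −4.33 points in IP against nucleus and from 2.9 to 6.05 points in HEK293 nucleus against cytoplasm, and the ratio in A375 from −0.66 to −0.43. The share with all mapped libraries could not be given, since the near-empty libraries held 0 counts of miR-320.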
